A study of Mus musculus with 12 samples.

Results

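The comparison described here was the return of the splicing factor Puf60, as the form that contains its alternative exon 5, to mouse cells in which the endogenous Puf60 had been depleted. The cells were N2A, a mouse neuroblastoma line, carrying a Flag-tagged Puf60 cDNA with exon 5 that doxycycline switches on and the siRNA does not match (the pEx5 line). The induced group received the Puf60 siRNA at 15 nM and doxycycline at 2 µg/ml for 24 h. The knockdown group received the Puf60 siRNA at 15 nM without doxycycline. Both were harvested 48 h after transfection, and each held 2 libraries, A and B, so 4 of the 12 libraries of the series made this comparison. Control cells of the same line received a non-targeting siRNA at 15 nM and no doxycycline. A matching line carried the cDNA without exon 5 (mEx5) and was treated in the same 3 ways, also with 2 libraries per group. Each form of the cDNA was thus expressed in 1 stable line, so form and line cannot be told apart. All cells carried the rtTA3 activator through which doxycycline acts, and the lines were selected as stable integrants with hygromycin. No library had doxycycline together with the non-targeting siRNA, so an effect of the drug and an effect of the cDNA cannot be told apart in the induced libraries. The labels call A and B biological duplicates without saying that they came from separate cultures, so each p-value covers the spread among these libraries alone, which may be technical. For the doxycycline libraries a free-text label speaks of no induction, against their treatment field, and the treatment field was followed.

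Puf60 is a relative of the splicing factor U2AF2 and binds pyrimidine-rich stretches in front of 3′ splice sites, where it helps the U2 snRNP to be recruited to the branch point. Exons whose 3′ splice sites are weak depend on such factors, and when the site is not recognised the exon is skipped together with its flanking introns. Exon 5 of Puf60 is a cassette exon that is included or skipped in different tissues. In neurons, many short exons, among them the very short microexons, are switched on as a group and sit in genes of synapses, vesicle traffic and the cytoskeleton.

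The stretch of Puf60 that the knockdown was aimed at is shown first, because it separates the endogenous transcript from the cDNA. It covers 55 nt of coding sequence on the minus strand at chr15:76070334-76070388 (mm10), and the 7 bases that the resistant cDNA changes, per the primers in the labels, are in capitals in both forms.
Endogenous Puf60: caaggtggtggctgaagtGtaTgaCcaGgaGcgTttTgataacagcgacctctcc
Puf60 cDNA: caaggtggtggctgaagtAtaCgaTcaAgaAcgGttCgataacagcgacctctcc
Exon 5 itself is a coding exon of 51 nt, a multiple of 3.
Also shown are 5 coding microexons on which the results below turn, each in capitals between the last and first 15 nt of its neighbouring exons. They are those of Nbea (chr3:55994048-55994056, minus strand), Snx14 (chr9:88400723-88400749, minus strand), Picalm (chr7:90194273-90194296, plus strand), Cdk5rap2 (chr4:70246948-70246974, minus strand) and Mink1 (chr11:70609408-70609431, plus strand). The first 3 were included more after induction and the last pair less.
Nbea 9 nt: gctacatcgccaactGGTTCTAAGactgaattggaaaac
Snx14 27 nt: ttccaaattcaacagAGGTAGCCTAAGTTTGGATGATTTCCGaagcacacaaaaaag
Picalm 24 nt: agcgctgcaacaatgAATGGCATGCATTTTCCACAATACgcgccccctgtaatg
Cdk5rap2 27 nt: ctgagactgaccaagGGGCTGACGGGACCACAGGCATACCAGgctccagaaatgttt
Mink1 24 nt: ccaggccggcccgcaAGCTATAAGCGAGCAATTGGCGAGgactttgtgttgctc
Exons were matched to GENCODE M21 (mm10) by gene symbol, exon length and the lengths of both flanking introns, and 73 of the 96 exons looked up had a unique match.

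Splicing was measured as percent spliced in (PSI), the percentage of reads at an event that include the exon, intron or splice site. The induced libraries held 27135220 and 26272070 exon-exon junction reads, the knockdown libraries 35965445 and 36879792, and the control libraries 41494994 and 36766280. The induced libraries were thus the shallowest of the line, and the part of depth in the results was not tested. Of 18 neuroblastoma and neuronal markers, 13 had over 1 RPKM in the authors' deposited table in induced cells, and their sum was 2018 RPKM in induced, 1949 in knockdown and 2118 in control cells. The neurofilament genes Nefl and Nefm and the microtubule gene Dcx were at or near 0. Summed levels of 8 fibroblast markers were 0.5, 0.94 and 0.45 RPKM in induced, knockdown and control cells, those of 8 glial markers 5.33, 6.64 and 5.51 and those of 8 immune markers 0.56, 0.68 and 0.76. Col3a1, Olig1, Olig2, Sox10 and Cd3e were among those listed at 0.

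Puf60 returned to a level above that of the control cells, and its messages now mostly contained exon 5. Puf60 (ENSMUSG00000002524.17) had 617.4 and 631.2 CPM (junction reads scaled by library size) in the induced libraries, 58.3 and 64.4 CPM in the knockdown libraries and 321.2 and 295.7 CPM in the control libraries. No groups overlapped, and the induced libraries were the highest. The log2 fold change on induction was 3.35 ± 0.07 (SE, limma adjusted p = 1.62e-07). The authors' deposited table gave 3.46, from 246.1 RPKM in induced cells against 22.1 RPKM in knockdown cells. Reads of the endogenous gene and of the cDNA are counted together in these values. In bulk RNA, fewer cells making a transcript and less of it per cell cannot be told apart.

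The PSI of exon 5 was 88.0 and 89.4 in the induced libraries, 23.2 and 19.8 in the knockdown libraries and 39.1 and 35.8 in the control libraries. These values rest on 3950 and 3609 reads in the induced libraries and 443 and 460 in the knockdown libraries. Inclusion was thus highest after induction and lowest in the knockdown, with no overlap between groups. The increase over the knockdown was 67.2 points, or 4.83 ± 0.18 (SE) on the log2 scale of inclusion over exclusion reads (limma adjusted p = 2.61e-09). In the mEx5 line, induction had the opposite sign, with a PSI of 6.06 and 7.34 in induced libraries and 26.1 and 22.8 in knockdown libraries. The difference of the changes between the lines was 84.9 points (limma adjusted p = 3.67e-09). The pEx5 cDNA contains exon 5 and the mEx5 cDNA lacks it, so this difference was set by the constructs. The Puf60 level did not separate the lines in the same way. Its log2 fold change was 3.03 in the mEx5 line, and the difference of 0.32 did not pass the test (limma adjusted p = 0.255).

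**Figure D1:**
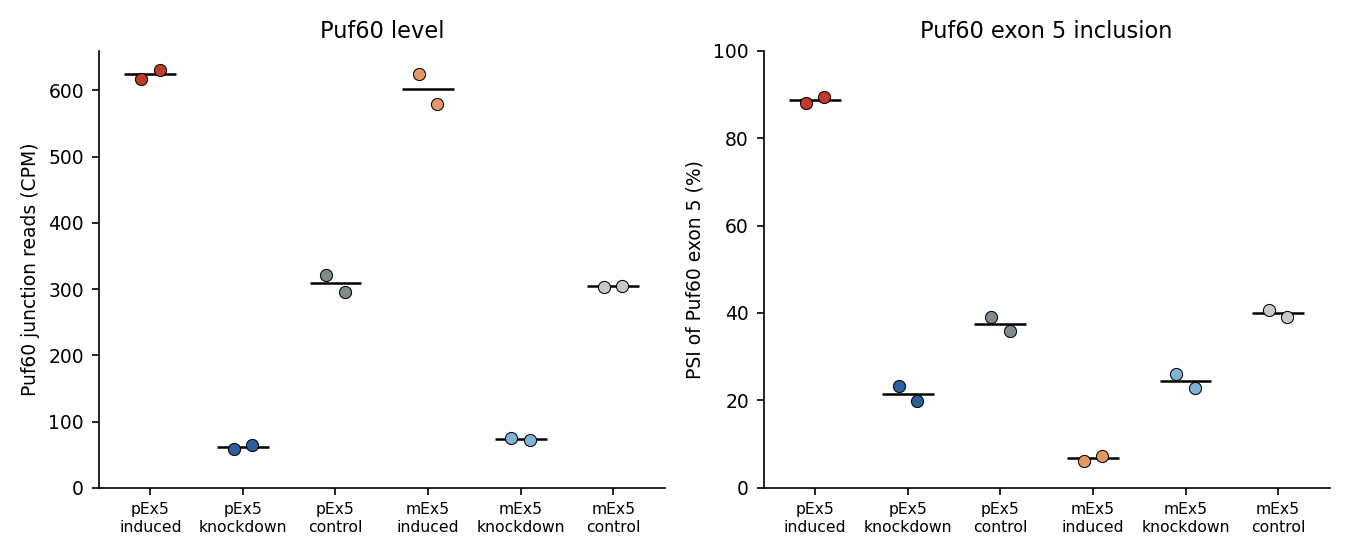
Puf60 junction reads in CPM (left) and PSI of Puf60 exon 5 in percent (right) in each of the 12 libraries, as points, with the mean of each group of 2 as a bar. The pEx5 induced libraries reach 617.4 and 631.2 CPM and a PSI of 88.0 and 89.4, while the mEx5 induced libraries have a similar level and a PSI of 6.06 and 7.34.

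Induction of Puf60 with exon 5 mainly raised the inclusion of exons. Of 22767 events tested, 1681 (7.38%) changed by at least 10 PSI points at a limma adjusted p under 0.05, 1353 of them upward (5.94%) and 328 downward (1.44%). The called events lay in 1200 genes. Without precision weights 819 events were called and with no limit on mean PSI 662, and leaving out 1 library left 1087 (without induced B) to 1250 (without knockdown A), 1087 also being the number past 15 points. Among exons over 27 nt, 1079 of 8243 rose (13.1%) and 152 fell (1.84%). Microexons of 3 to 27 nt moved most often, with 78 of 281 higher (27.8%) and 2 lower (0.712%). Introns divided more evenly, with 128 of 8862 more retained (1.44%) and 96 less retained (1.08%). Alternative 3′ splice sites also moved both ways, 59 of 3019 upward (1.95%) and 62 downward (2.05%), and alternative 5′ sites seldom moved, 9 of 2362 upward (0.381%) and 16 downward (0.677%). A site of an event with several sites can fall because another of the same event rises. The authors' deposited splicing table marks 1278 of the 1285 higher events that have a call there as changed, and 248 of 250 lower ones, against 1581 of 15849 events (9.98%) that were not called here.

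**Figure D2:**
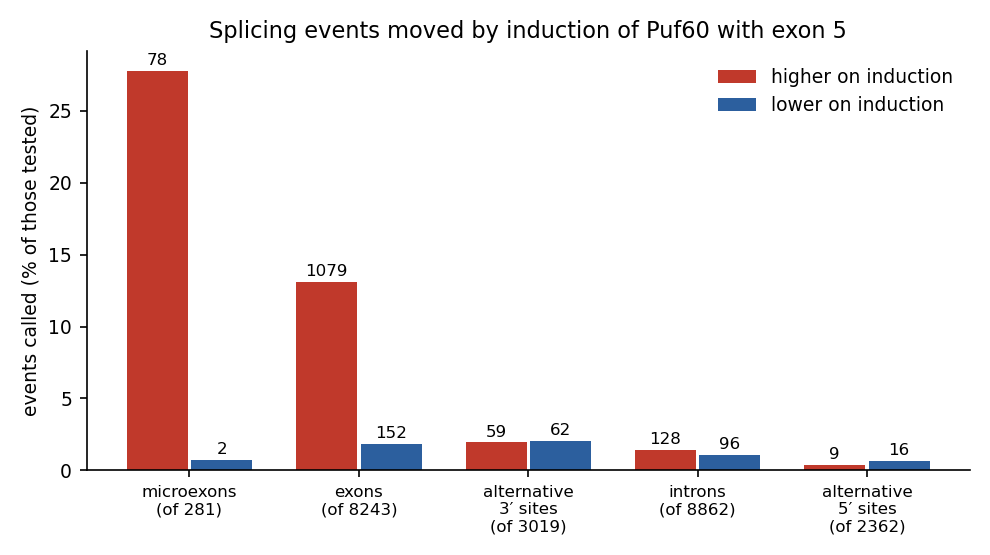
Share of tested events called higher or lower in pEx5 induced than in knockdown libraries, in percent, by class of event; numbers above the bars are the events called. Microexons have the highest share, 27.8% upward, followed by longer exons, 13.1% upward. Introns and alternative sites have low shares in both directions, and alternative 3′ sites divide almost evenly.

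The exons with the largest gains went back to near the level of the control cells. The 90 nt coding exon of Dtnb (chr12:3732618-3732707), which encodes a partner of dystrophin, had a PSI of 88.0 and 88.7 in induced, 23.1 and 26.7 in knockdown and 91.2 and 89.2 in control libraries. Induced and control libraries lay side by side, well above the knockdown, and the gain was 63.5 points (limma adjusted p = 6.51e-07). The 130 nt exon of Pfkfb1 (chrX:150639581-150639710), an enzyme that sets the level of fructose 2,6-bisphosphate, had a PSI of 82.8 and 94.7 in induced, 23.8 and 24.1 in knockdown and 97.5 and 98.8 in control libraries. Here the induced libraries stayed a little under the controls, with a gain of 64.8 points (limma adjusted p = 0.000117). The 75 nt exon of Aldh6a1 (chr12:84442071-84442145), a mitochondrial enzyme of valine breakdown, had a PSI of 95.1 in both induced libraries, 38.5 and 39.4 in knockdown and 100 in both control libraries (a gain of 56.2 points, limma adjusted p = 0.000987). The 83 nt exon of Ttll5 (chr12:85857380-85857462), a tubulin glutamylase, had a PSI of 86.2 and 96.7 in induced, 45.5 and 31.2 in knockdown and 97.5 and 98.5 in control libraries (53.1 points, limma adjusted p = 0.000606). In all 4 genes the exon was included in most messages except in the knockdown. The exons of Cntn3, a neural cell adhesion protein, Ankrd32 and Cnga3, a channel subunit of cone photoreceptors, gained 54.3, 54.8 and 57.6 points. Their calls were less firm. Without induced B the limma adjusted p of the Cntn3 exon was 0.0503, and leaving out any of the 4 libraries ended the calls of Ankrd32 and Cnga3, with a limma adjusted p up to 0.101 and 0.12. All 3 also lost their calls without weights and with no limit on mean PSI.

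A smaller set of exons was included most in the knockdown and was skipped again after induction. The 91 nt coding exon of Ogdh (chr11:6316765-6316855), a subunit of the 2-oxoglutarate dehydrogenase of the citric acid cycle, had a PSI of 47.4 and 44.2 in induced, 85.8 and 87.8 in knockdown and 35.0 and 37.1 in control libraries. The fall of 41.0 points had the lowest adjusted p of the named falls (limma adjusted p = 1.43e-08). The 152 nt exon of Syt1, the calcium sensor of vesicle release, had a PSI of 4.76 and 7.12 in induced, 55.2 and 59.2 in knockdown and 22.2 and 12.7 in control libraries. Its fall was 51.3 points (limma adjusted p = 0.00353), and the adjusted p was 0.0828 without induced B. The 107 nt exon of Slc8a1, a sodium-calcium exchanger, had a PSI of 20.6 and 24.1 in induced, 57.8 and 71.4 in knockdown and 14.4 and 16.1 in control libraries. It thus fell by 42.2 points to a little above the controls (limma adjusted p = 0.000241). The 84 nt exon of the calcium channel subunit Cacna1c (chr6:118638427-118638510) had a PSI of 61.8 and 45.5 in induced, 86.4 and 87.7 in knockdown and 56.3 and 62.4 in control libraries. The induced libraries differed from each other by more than those of either other group, and the fall was 33.4 points (limma adjusted p = 0.00124). Exons of Ccdc136 (a fall of 37.7 points), Greb1l (33.4 points) and the zinc finger gene Zfp239 (34.2 points) were also among the largest falls. The last of these lost its call in 3 of the 4 fits that left out a library, with a limma adjusted p up to 0.344, and also without weights. With no limit on mean PSI neither Zfp239 nor Ccdc136 was called.

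An exon of Pcm1, the scaffold protein of centriolar satellites, fell below the control level. The 117 nt coding exon (chr8:41261360-41261476) had a PSI of 39.5 and 38.8 in induced, 71.0 and 72.6 in knockdown and 57.2 and 55.7 in control libraries. The induced libraries were therefore the lowest of the line and the knockdown libraries the highest, with a fall of 32.7 points on induction (limma adjusted p = 1.27e-07). Libraries of the mEx5 line gave the same exon a PSI of 74.9 and 73.7 in induced, 67.3 and 68.2 in knockdown and 62.2 and 61.9 in control libraries. The changes on induction had opposite signs in the lines and differed by -39.2 points, pEx5 minus mEx5 (limma adjusted p = 8.4e-06), a call that was lost without weights.

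**Figure D3:**
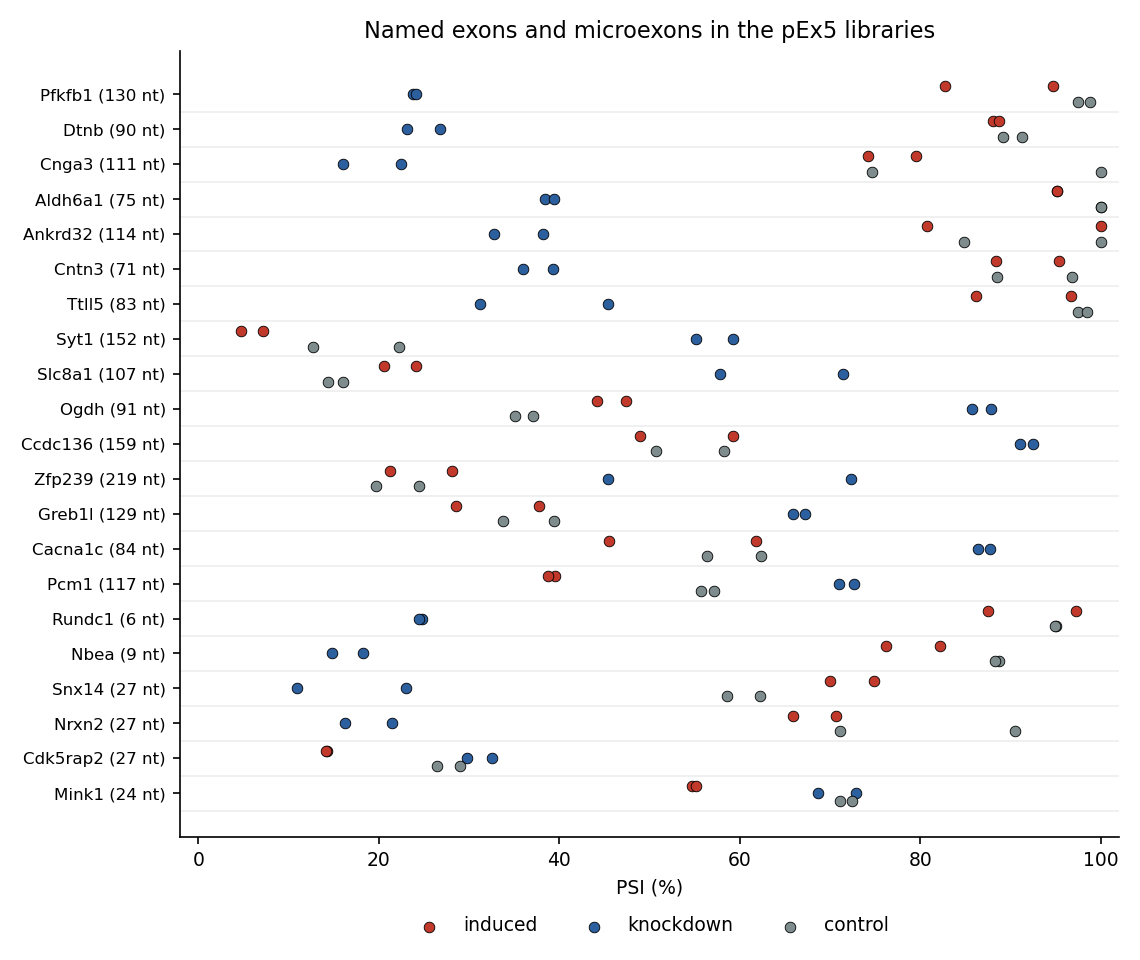
PSI in percent of the named exons and microexons other than Puf60 exon 5 in each pEx5 library, with induced libraries above knockdown and control libraries in each line of the plot. The exons that rose sit at the right in induced and control libraries and at the left in knockdown, as in Dtnb with 88.0 and 88.7 against 23.1 and 26.7.

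Microexons followed the exons and held some of the largest gains. The 6 nt microexon of Rundc1 had a PSI of 97.3 and 87.5 in induced, 24.8 and 24.5 in knockdown and 95.03 and 94.96 in control libraries. The change of 67.8 points (limma adjusted p = 2.88e-05) took it back to the control level. The 9 nt microexon of Nbea, a neuronal protein of vesicle traffic, had a PSI of 82.2 and 76.2 in induced, 14.8 and 18.3 in knockdown and 88.7 and 88.3 in control libraries. All induced and control values lay far above the knockdown, with a gain of 62.7 points (limma adjusted p = 3.98e-07). The 27 nt microexon of Snx14, an endosomal sorting nexin, had a PSI of 74.9 and 70.0 in induced, 23.0 and 10.9 in knockdown and 58.5 and 62.3 in control libraries. In this case the induced libraries lay above the controls, and the gain over the knockdown was 55.5 points (limma adjusted p = 8e-05). The 27 nt microexon of the presynaptic adhesion molecule Nrxn2 gained 49.4 points (limma adjusted p = 0.00513), with an adjusted p of 0.0546 without knockdown B, and lost its call without weights and with no limit on mean PSI.

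The 2 microexons that fell belong to genes of the centrosome and of kinase signalling. The 27 nt microexon of Cdk5rap2, a centrosomal protein that anchors microtubule nucleation, had a PSI of 14.2 and 14.1 in induced, 32.5 and 29.8 in knockdown and 29.0 and 26.4 in control libraries. Only the induced libraries stood apart, 17.0 points lower than the knockdown (limma adjusted p = 0.0031). The 24 nt microexon of the kinase gene Mink1 had a PSI of 54.7 and 55.1 in induced, 72.9 and 68.6 in knockdown and 71.2 and 72.5 in control libraries. It too was low in the induced libraries alone, by 15.8 points (limma adjusted p = 0.00652), though its adjusted p was up to 0.0596 without induced A or knockdown A and the call was lost without weights. On mEx5 induction these microexons changed by -1.18 and 2.94 points. The difference between the lines did not pass for either (limma adjusted p = 0.154 for Cdk5rap2 and 0.143 for Mink1).

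Introns changed less often and in both directions. Retention of a 1960 nt intron of 2610318N02Rik stood at a PSI of 72.0 and 62.6 in induced, 22.9 and 24.2 in knockdown and 61.2 and 78.7 in control libraries (43.7 points higher, limma adjusted p = 0.000495). A 4183 nt intron of Slc35c2, a gene of the nucleotide-sugar transporter family, had a PSI of 58.5 and 52.2 in induced, 8.89 and 25.4 in knockdown and 25.6 and 20.2 in control libraries. Its retention after induction was thus above both other groups, by 38.2 points over the knockdown (limma adjusted p = 0.00246). A 3534 nt intron of 4931428F04Rik had a PSI of 35.8 and 29.2 in induced, 76.5 and 77.8 in knockdown and 26.3 and 34.9 in control libraries, and fell by 44.6 points (limma adjusted p = 0.00167). An intron of Ache, the acetylcholinesterase gene, had a PSI of 7.19 and 30.3 in induced and 54.7 and 59.1 in knockdown libraries, a fall of 38.1 points (limma adjusted p = 0.0303). The introns of Atp8b3 (44.0 points higher), Prss36 (32.5 higher), Ip6k2 (38.8 lower) and Pramef8 (38.3 lower) complete the largest changes. Of these and Ache, each lost its call without at least 2 of the 4 libraries, with limma adjusted p up to 0.223 for Atp8b3, 0.0938 for Prss36, 0.206 for Ip6k2, 0.148 for Pramef8 and 0.166 for Ache. None of the 8 named introns was called with no limit on mean PSI, and Slc35c2, Ache, Atp8b3 and Ip6k2 were not called without weights.

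Alternative splice sites moved as well, several of them to near the control pattern. The alternative 3′ site of Celf1, an RNA-binding regulator of splicing, that adds 12 nt had a PSI of 80.7 and 85.6 in induced, 39.19 and 38.96 in knockdown and 81.6 and 77.6 in control libraries. Induced and control libraries overlapped, and use of the site rose by 44.1 points (limma adjusted p = 6.51e-07). A 436 nt site of the peptidase-like gene Prepl rose by 37.5 points (limma adjusted p = 3.95e-05). In Rad51ap1, a DNA repair gene, the 59 nt site rose by 36.6 points and the 111 nt site of the same event fell by 36.8 points. The 27 nt site of Rnf111, a ubiquitin ligase of the TGF-beta pathway, had a PSI of 29.6 and 31.7 in induced, 67.5 and 63.8 in knockdown and 10.3 and 1.98 in control libraries. It stayed above the controls after a fall of 35.0 points (limma adjusted p = 0.000411). A 56 nt site of the kinetochore gene Cenpt fell by 35.3 points (limma adjusted p = 0.000531). Sites of Rpgr (a rise of 47.3 points) and Trmt1 (a fall of 37.6 points) lost their calls without any of 3 of the 4 libraries, with limma adjusted p up to 0.132 and 0.133. With no limit on mean PSI the sites of Cenpt, Rpgr and Trmt1 were not called, and without weights those of Rnf111 and Trmt1 were not.

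Among alternative 5′ sites the 3 nt site of Dctn2, a dynactin subunit, had a PSI of 37.2 and 30.8 in induced, 83.3 and 83.8 in knockdown and 8.57 and 14.4 in control libraries. Its fall of 49.6 points was the largest among the named 5′ sites (limma adjusted p = 1.26e-07) and left it above the controls. The 5 nt site of Cbx3, a heterochromatin protein, fell by 34.1 points (limma adjusted p = 0.000575). The 73 nt site of the ubiquitin-conjugating enzyme Ube2n had a PSI of 43.0 and 42.5 in induced, 19.0 and 21.9 in knockdown and 43.45 and 38.04 in control libraries (22.3 points higher, limma adjusted p = 0.00159). On mEx5 induction it changed by 0.51 points, and the difference between the lines did not pass (limma adjusted p = 0.13). The 41 nt site of Csnk2a1, the catalytic subunit of casein kinase 2, rose by 19.5 points and remained under the controls, with a PSI of 30.4 and 31.1 in induced against 50.2 and 43.1 in control libraries. A 17 nt site of Gcfc1 had a PSI of 60.2 and 58.2 in induced, 39.1 and 34.8 in knockdown and 38.3 and 36.4 in control libraries, so it was high in the induced libraries alone. That gain of 22.3 points had a limma adjusted p of 0.00605, and of 0.0587 without induced A. The 43 nt site of Entpd4 rose by 33.4 points while its 19 nt site fell by 32.2 points, and a site of Fbxo44 fell by 17.4 points. All 3 lost their calls without 2 or more libraries, with limma adjusted p up to 0.136, 0.133 and 0.269. The Entpd4, Fbxo44 and Gcfc1 calls were also lost without weights and with no limit on mean PSI.

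The exons that rose were a little shorter than the rest, and those that fell lay between shorter introns. As descriptions without a test, the 1157 exons and microexons that rose were 95 nt long at the median, against 105 nt for all 8524 tested, and 51.6% against 44.4% had a length divisible by 3. Their median flanking introns were 3164 nt upstream and 2854 nt downstream (927 exons with known flanks), against 2551 and 2671.5 nt for all tested. The 154 that fell had a median length of 126.5 nt and flanking introns of 1427.5 and 1261 nt (106 exons). Median PSI of the rising exons was 84.6 in induced, 61.9 in knockdown and 88.9 in control libraries, and that of the falling exons was 49.3, 69.9 and 49.5. Introns that became less retained were longer at the median, 1185.5 nt against 648.5 nt for all 8862 tested, and those more retained had 551.5 nt.

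How far induction in the pEx5 line reversed knockdown changes was counted on events picked in other libraries, namely those called between knockdown and control in the mEx5 line. Of 2152 events lower on that knockdown (9.45% of all tested), 1025 (47.6%) rose past the test on induction in pEx5 cells, against 5.94% of all events, and 1 fell. Of 776 events higher on it (3.41%), 187 (24.1%) fell past the test, against 1.44% of all events, and 3 rose. Without a test of single events, PSI moved back in 2032 (94.4%) and 650 (83.8%) of them. The median PSI of the first set was 79.4 in pEx5 induced, 63.3 in pEx5 knockdown and 86.7 in pEx5 control libraries. That of the second set was 27.04, 36.8 and 18.04 in pEx5 induced, knockdown and control libraries, so both sets stopped short of the control median. The counts depend on the weights and the size limit: the 1212 events moved back became 607 without weights and 754 at 15 points.

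By class, microexons that were lower on the mEx5 knockdown had the highest share that came back, 64 of 106 (60.4%, against 27.8% of all microexons). Their median PSI in the pEx5 line was 54.2 in induced, 32.7 in knockdown and 59.7 in control libraries. Longer exons came back in 883 of 1849 cases (47.8%, against 13.1%). Of introns that had become less retained on that knockdown, 31 of 76 became more retained again (40.8%, against 1.44%). Introns that had become more retained on knockdown had the lowest share, 65 of 395 (16.5%, against 1.08%). The median PSI of those introns was 18.0 in induced, 23.9 in knockdown and 9.82 in control libraries. Alternative 3′ sites came back in 43 of 101 lower and 41 of 105 higher cases (42.57% and 39.05%), against 1.95% and 2.05% of all 3′ sites. At 5′ sites the counts were 4 of 20 and 9 of 53 (20% and 17.0%), against 0.381% and 0.677%.

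Gene levels followed in part. On junction reads summed per gene, 1740 of 10363 genes (16.8%) differed between induced and knockdown libraries at a limma adjusted p under 0.05, 1068 higher (10.3%) and 672 lower (6.48%). The authors' deposited table, on its own counts, called 1987 of 18600 genes higher (10.7%) and 1607 lower (8.64%). Fits without 1 library called 692 (without knockdown B) to 961 (without induced B). Among 1633 genes lower on the mEx5 knockdown (15.8%), 637 (39.01%, against 10.3%) rose on induction in pEx5 cells and 12 fell. Among 1593 higher ones (15.4%), 365 (22.9%, against 6.48%) fell and 50 rose. The 1002 genes that moved back became 468 to 596 when 1 library was left out. The median log2 fold change on induction was 0.19 and -0.13 in these sets, and 0.00 over all genes. Junction totals of a gene can move with its splicing, since a skipped exon removes a junction.

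Among genes that the authors' deposited table also called, the largest log2 rise was that of an adhesion receptor, above that of Puf60 itself. Gpr56, an adhesion G protein-coupled receptor, had 11.7 and 9.94 CPM in induced, 0.334 and 0.409 CPM in knockdown and 0.369 and 0.0281 CPM in control libraries. Only the induced libraries had more than 1 CPM, 4.64 ± 0.57 (SE) higher on the log2 scale (limma adjusted p = 0.00154). The mEx5 line had the same pattern, 31.5 and 29.9 CPM in induced against 0.613 and 0.849 CPM in knockdown libraries. Cdsn, a cell adhesion protein of cornified skin, also ended above the control cells. It had 4.69 and 3.72 CPM in induced, 1.502 and 1.255 CPM in knockdown and 0.270 and 0.562 CPM in control libraries (log2 fold change 1.56 ± 0.25, limma adjusted p = 0.00497).

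Further large rises included a gene of vesicle fusion. Vamp2, the vesicle SNARE of synapses, had 16.3 and 15.9 CPM in induced, 4.09 and 3.79 CPM in knockdown and 19.3 and 17.0 CPM in control libraries. It returned close to the control level, with a log2 fold change of 2.01 ± 0.23 (limma adjusted p = 0.00109). Blcap had 21.03 and 18.15 CPM in induced, 4.70 and 5.13 CPM in knockdown and 11.2 and 11.5 CPM in control libraries, and so passed the controls (1.98 ± 0.14, limma adjusted p = 0.000138). Abcb9, a lysosomal peptide transporter, had 5.73 and 4.76 CPM in induced, 1.34 and 1.69 CPM in knockdown and 3.19 and 3.54 CPM in control libraries (1.75 ± 0.23, limma adjusted p = 0.00206). On mEx5 induction it changed by 0.05, but the difference between the lines did not pass (limma adjusted p = 0.111). The remaining large rises were at low level, under 2 CPM in every pEx5 library. They were Cpxm1 (2.06), Klhl26 (2.03), Cnga3 (1.70) and Rnft2 (1.63 on the log2 scale). In the authors' deposited table, which is not limited to junction reads, these genes rose by 2.07, 0.62, 0.79 and 1.33. The values were thus furthest apart for Klhl26 and Cnga3. Junction reads of Klhl26 came from 2 introns. Klhl26 lost its call without any 1 of the 4 libraries (limma adjusted p of 0.0866 to 0.183).

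Several of the genes that fell most were low in induced and control libraries and higher in the knockdown. Aldh8a1, an aldehyde dehydrogenase, had 0.111 and 0.499 CPM in induced, 2.25 and 2.37 CPM in knockdown and 0 and 0.253 CPM in control libraries (log2 fold change -2.92 ± 0.72, limma adjusted p = 0.028). Gabrr2, a subunit of GABA receptors, had 0.554 and 0.345 CPM in induced, 2.34 and 2.21 CPM in knockdown and 0.295 and 0.253 CPM in control libraries (-2.21 ± 0.30, limma adjusted p = 0.00219). Both were thus detected at over 2 CPM in the knockdown alone. Sdcbp2, a PDZ adaptor protein, had 1.18 and 1.27 CPM in induced, 3.28 and 3.66 CPM in knockdown and 1.204 and 1.123 CPM in control libraries (-1.45 ± 0.26, limma adjusted p = 0.00781). Spp1, the secreted matrix protein osteopontin, had 0.591 and 0.384 CPM in induced, 1.67 and 1.31 CPM in knockdown and 0.344 and 0.337 CPM in control libraries (-1.51 ± 0.32, limma adjusted p = 0.0156). A change of -2.29 was found for 4930579J09Rik, -1.75 for Spin2, -1.72 for Mfsd2b, -1.42 for the phospholipid transporter Abcb4 and -1.34 for the interferon gene Oas1b. For Col14a1 the estimate of the spread was shared with mEx5 libraries that held 47 to 88 reads. Col14a1 fell with 1 and 0 reads in induced and 6 and 5 reads in knockdown libraries, counts too low for a firm call. Among these, calls were lost without 1 or more libraries for Aldh8a1, Mfsd2b, Spp1, Oas1b, Sdcbp2 and Spin2, with limma adjusted p up to 0.15, 0.201, 0.0928, 0.0669, 0.0544 and 0.0506.

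Pathways were read from gene lists, as counts of members past the test beside the 10.3% and 6.48% of all genes. Of 24 genes of neuronal SNAREs and synaptic vesicles, 10 rose and 1 fell, with a median log2 fold change of 0.18. Sv2a, a vesicle glycoprotein, had 25.2 and 24.5 CPM in induced, 9.35 and 9.41 CPM in knockdown and 33.98 and 31.29 CPM in control libraries (1.40 ± 0.09, limma adjusted p = 0.000117). Snap25, the plasma membrane SNARE, had 127.7 and 137.9 CPM in induced, 60.2 and 56.0 CPM in knockdown and 124.8 and 121.4 CPM in control libraries (1.19 ± 0.06, limma adjusted p = 3.7e-05). Snap25 thus passed the control cells slightly, while Sv2a stayed below them. Vamp1, Napb, Sv2c, Rims2, Unc13a and Syn2 rose by 0.78, 0.74, 0.59, 0.39, 0.36 and 0.32, and Sypl, a vesicle protein found outside neurons, fell by 0.27. On mEx5 induction 8 of the list rose and 1 fell, against 11% and 9.3% of all genes there. No member differed between the lines in junction reads.

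Splicing was altered within the same genes; the events named here and in the lists that follow were chosen after their values were seen. An intron of Vamp2 (622 nt) had a PSI of 16.9 in both induced libraries and 52.0 and 50.8 in knockdown libraries (a fall of 34.5 points, limma adjusted p = 0.000105). Introns of Sv2a (384 nt) and Syn1 (889 nt) fell by 29.3 and 19.4 points (limma adjusted p = 0.0396 and 0.0119). The 24 nt microexon of Synj1, a phosphatase of vesicle recycling, had a PSI of 76.0 and 68.7 in induced and 43.6 and 43.1 in knockdown libraries, a rise of 29.0 points. A 30 nt exon of Unc13a, a vesicle priming factor, rose by 18.6 points and exons of Syn2 (253 and 61 nt) by 30.9 and 18.0 points. The 61 nt exon of Syn2 stayed below the controls, with a PSI of 76.5 and 73.5 in induced against 96.3 and 96.7 in control libraries. Its changes on induction differed between the lines by -11.7 points, pEx5 minus mEx5 (limma adjusted p = 0.00915). Junction totals of Vamp2 and Sv2a rose, as given above, and that of Syn1 changed by 0.03 (limma adjusted p = 0.838).

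Among 20 neural splicing regulators 7 rose and none fell, with a median of 0.14. Ptbp2, the neuronal polypyrimidine tract binding protein, had 66.3 and 69.9 CPM in induced, 30.5 and 32.1 CPM in knockdown and 110.5 and 128.3 CPM in control libraries. It came part of the way back, by 1.12 ± 0.08 (limma adjusted p = 0.0002). Its 34 nt exon had a PSI of 82.5 and 78.5 in induced and 42.9 and 37.0 in knockdown libraries, a rise of 40.5 points (limma adjusted p = 2.91e-05). Celf5, another RNA-binding regulator, rose by 1.01 ± 0.16 (limma adjusted p = 0.00433) and Elavl2, a neuronal RNA-binding protein, by 0.56 ± 0.08 (limma adjusted p = 0.00347). Srrm4, the activator of neural microexons, had 24.1 and 21.3 CPM in induced against 18.0 CPM in both knockdown libraries, a rise of 0.33 (limma adjusted p = 0.0419). Rbfox2, Elavl1 and Elavl4 rose by 0.35, 0.34 and 0.23. A 40 nt exon of Rbfox2 also rose, by 16.4 points.

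General splicing factors moved in both directions. Among 22 factors of the 3′ splice site and the U2 snRNP, 2 rose and 4 fell, with a median of -0.09. U2surp, a U2-associated protein, had 467.3 and 463.1 CPM in induced and 327.9 and 313.7 CPM in knockdown libraries (0.54 ± 0.05, limma adjusted p = 0.000664). The branch point binding protein Sf1 rose by 0.20, while Cherp, Sf3b3, Sf3a2 and Sf3a3 fell by 0.30, 0.27, 0.24 and 0.23. Of 15 hnRNP genes, 3 rose and 1 fell. Hnrnpc, Hnrnpa2b1 and Hnrnpul1 rose by 0.38, 0.31 and 0.24, and Hnrnph2 fell by 0.28. The 73 nt exon of Hnrnpa2b1 had a PSI of 16.2 and 18.2 in induced and 4.53 and 4.82 in knockdown libraries (a rise of 12.5 points, limma adjusted p = 1.74e-07). Among 10 SR protein genes, 2 fell and none rose. Srsf12 had 93.7 and 97.6 CPM in induced against 141.1 and 139.5 CPM in knockdown libraries (-0.55 ± 0.07, limma adjusted p = 0.00154), and Srsf11 fell by 0.20. Of 15 nonsense-mediated decay factors, Nbas rose by 0.71 ± 0.07 (limma adjusted p = 0.000566), and Upf3b, Smg9 and Upf1 fell by 0.40, 0.31 and 0.29.

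Stress genes divided by pathway. In the integrated stress response, the programme of the transcription factor Atf4, 9 of 31 genes rose and none fell (median 0.15). Slc38a2, an amino acid transporter, had 298.6 and 318.3 CPM in induced, 192.1 and 177.9 CPM in knockdown and 326.4 and 321.1 CPM in control libraries (0.74 ± 0.07, limma adjusted p = 0.000465). Slc7a11, the cystine transporter, had 22.7 and 23.0 CPM in induced, 15.3 and 14.8 CPM in knockdown and 9.07 and 9.16 CPM in control libraries (0.60 ± 0.10, limma adjusted p = 0.00498). The first was low only in the knockdown and the other was highest after induction. Ddit4, Chac1, Sesn2 and Aldh1l2 rose by 0.44, 0.40, 0.37 and 0.37, while Atf4 itself changed by 0.06 and did not pass (limma adjusted p = 0.468). Of 21 genes of the unfolded protein response of the endoplasmic reticulum, 3 fell and none rose (median -0.11). The chaperone Hspa5 had 1235.4 and 1294.6 CPM in induced against 1575.7 and 1623.1 CPM in knockdown libraries (-0.34 ± 0.06, limma adjusted p = 0.00856), and Dnajc3 and Creld2 fell by 0.37 and 0.23. Of 10 heat shock chaperones, Dnajb4 and Ahsa1 fell by 0.77 and 0.22. Among 18 targets of Nrf2, the regulator of the antioxidant response, 4 fell (Gstm1, Gclm, Sqstm1 and Hmox1, by 0.47, 0.40, 0.32 and 0.30) and 2 rose (Slc7a11 and Abcc1). Interferon response genes had 3 of 15 lower, among them Nmi and Isg15 (by 0.93 and 0.59), and none higher.

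Cell cycle genes leaned downward in mitosis. Of 31 genes of G2 and mitosis, 9 fell and none rose, with a median of -0.11. Plk1, a mitotic kinase, had 120.1 and 125.2 CPM in induced, 158.8 and 154.1 CPM in knockdown and 145.4 and 136.1 CPM in control libraries (-0.35 ± 0.06, limma adjusted p = 0.00743). Its induced libraries were the lowest of the line. Cdc25c, Kif20a, Ccnb2, Anln, Incenp and Aurka fell by 0.32, 0.31, 0.31, 0.29, 0.28 and 0.27. The 12 nt microexon of Incenp, a subunit of the chromosomal passenger complex, rose by 23.3 points to a PSI of 61.0 and 61.2 in induced, against 39.5 and 36.1 in knockdown libraries. Of 39 S phase genes only Gins1 and Cdc6 passed, both lower (0.31 and 0.21). In the p53 list, 1 of 14 genes changed, Trp53 itself, lower by 0.26. In Mdm2, whose product marks p53 for destruction, an 85 nt exon had a PSI of 58.3 and 55.1 in induced and 18.9 and 17.1 in knockdown libraries (38.8 points higher, limma adjusted p = 4.77e-07).

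Few members of the metabolic lists passed the test on junction reads. The glycolysis list had 2 of 14 genes higher. Eno2, the neuronal enolase, had 42.5 and 43.0 CPM in induced, 28.2 and 30.3 CPM in knockdown and 28.3 and 27.7 CPM in control libraries (0.55 ± 0.06, limma adjusted p = 0.000664), and the glucose transporter Slc2a3 rose by 0.31. Eno2 was thus high in the induced libraries alone. On mEx5 induction it changed by 0.08, and the difference did not pass (limma adjusted p = 0.0798). Of 21 sterol synthesis genes, Ebp and Mvd fell by 0.34 and 0.25, and the median of the list was -0.12. The authors' deposited table called 11 of 23 members lower and none higher, against 8.64% of all its genes lower. On mEx5 induction 7 of the 21 fell and none rose, against 9.3% of all genes lower there. Of 11 mitochondrial chaperones and proteases, Trap1 rose by 0.28 and Spg7 fell by 0.24. The 13 mitochondrially encoded genes have no spliced junctions, and in the authors' deposited table mt-Nd1, mt-Nd2 and mt-Co3 were higher by 0.51, 0.55 and 0.39 on the log2 scale. Contractile genes had 1 of 12 lower (Csrp1, by 0.28). Of 14 neuronal markers tested, Chga, a protein of secretory granules, rose by 0.80 ± 0.07 (limma adjusted p = 0.000334) and the adhesion molecule Ncam1 by 0.36. The only fibroblast marker tested, Pdgfra, fell by 0.43, at 0.24 RPKM in induced against 0.49 RPKM in knockdown cells in the authors' deposited table. Neither of the 2 glial markers tested passed, and no immune marker had enough reads.

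**Figure D4:**
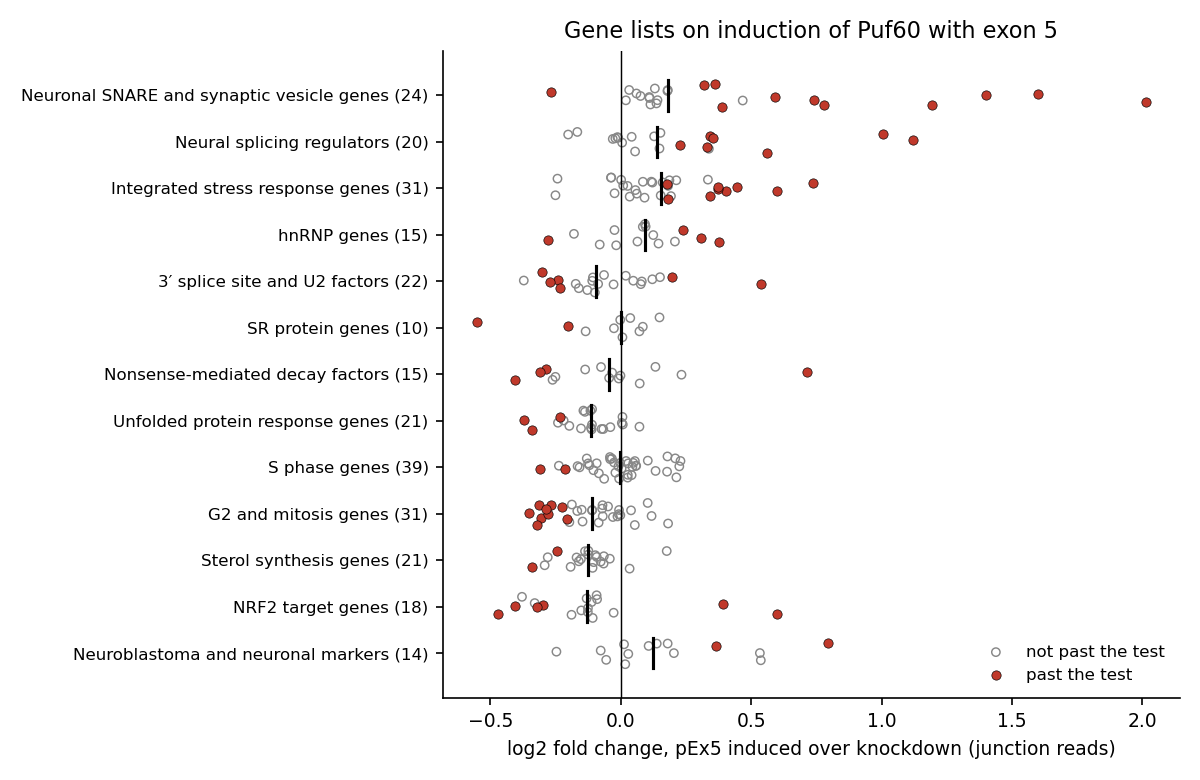
Log2 fold change of junction reads, pEx5 induced over knockdown, for each tested member of 13 gene lists (number of members in brackets), with filled points for genes past the test and a bar at the list's median. Synaptic vesicle genes reach furthest to the right, with 10 of 24 past the test and higher, and G2 and mitosis genes lie mostly left of 0, with 9 of 31 past the test and lower.

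The lines were then set against each other, by testing the difference between the changes on induction in the pEx5 and mEx5 lines. The lines also differed without induction, for instance in Abcb4, with 1.01 and 1.52 CPM in pEx5 control and 4.88 and 6.02 CPM in mEx5 control libraries. It passed for 92 of 22767 events (0.404%) and 15 of 10363 genes (0.145%), against 1681 events called for pEx5 induction and 2367 (10.4%) for mEx5 induction. These differences are less firm than the induction changes. Without precision weights 1 event passed, Puf60 exon 5, and without 1 library 42 to 56 events and 4 to 7 genes did. The difference in Puf60 exon 5 was set by the cDNAs themselves, so without weights no event outside the constructs passed. At an unadjusted p under 0.05 there were 2285 events and 1257 genes. In 64 of the 92 events the change was lower in the pEx5 line, and 75 of the 92 were exons over 27 nt. Such exons were 8243 of the 22767 events tested. They were also most of the 1681 events called on pEx5 induction, with 1079 higher and 152 lower, so their share is not particular to the differences between lines. In 36 events mEx5 induction reversed the knockdown change past the test and pEx5 induction did not, and in 6 the pEx5 line alone did so. Induction was called in the mEx5 line alone for 44 events and in the pEx5 line alone for 11.

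Exons that came back in pEx5 cells and less in mEx5 cells included a microexon of the endocytic adaptor Picalm. The events in this paragraph were chosen after their values were seen. The 24 nt microexon of Picalm had a PSI of 50.9 and 51.7 in induced, 23.9 and 23.0 in knockdown and 41.2 and 45.1 in control libraries of the pEx5 line. Among mEx5 libraries it had 32.6 and 31.3 in induced, 26.5 and 29.7 in knockdown and 45.6 and 44.1 in control libraries. The pEx5 induced libraries were above and the mEx5 induced libraries below all controls, and the changes differed by 23.9 points (limma adjusted p = 0.00156). The 144 nt exon of the kinase gene Pkn2 (chr3:142811914-142812057) had a PSI of 86.5 and 85.7 in pEx5 induced and 38.4 and 34.6 in pEx5 knockdown libraries. Its PSI in the mEx5 line was 64.1 and 68.1 in induced and 39.1 and 37.8 in knockdown libraries, and the changes differed by 21.97 points (limma adjusted p = 0.00784). Its inclusion after induction was thus lower in the mEx5 line. The 167 nt exon of Clk1, a kinase of SR proteins, had a PSI of 94.5 and 94.0 in pEx5 induced and 79.7 and 77.7 in pEx5 knockdown libraries, against 85.6 and 87.4 in mEx5 induced and 84.4 and 81.9 in mEx5 knockdown libraries (12.3 points, limma adjusted p = 0.017).

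In other events pEx5 induction moved PSI away from the control level. A 45 nt alternative 3′ site of the RNA-binding protein Serbp1, chosen after its values were seen, had a PSI of 52.7 and 53.9 in induced, 41.9 and 42.1 in knockdown and 35.3 and 36.5 in control libraries of the pEx5 line. It stood at 35.2 and 35.4 in mEx5 induced, 45.2 and 45.1 in mEx5 knockdown and 38.17 and 37.45 in mEx5 control libraries (21.2 points, limma adjusted p = 0.000551). The site thus went further from the controls in the pEx5 line and came back in the mEx5 line. The 184 nt exon of Fam193b had a PSI of 74.4 and 81.4 in induced, 41.6 and 47.7 in knockdown and 61.2 and 50.7 in control libraries of the pEx5 line, and 52.8 and 46.9 in mEx5 induced against 58.8 and 62.3 in mEx5 knockdown libraries. The 122 nt exon of the nuclear receptor Nr2c1 (chr10:94181494-94181615) had a PSI of 89.2 and 94.7 in induced, 72.7 and 69.3 in knockdown and 76.7 and 74.5 in control libraries of the pEx5 line, and 73.6 and 78.3 in mEx5 induced against 86.7 and 93.2 in mEx5 knockdown libraries. Neither exon was called on pEx5 knockdown against control (limma adjusted p = 0.154 and 0.485), and in both the pEx5 induced libraries lay above the controls of the line. The mEx5 control libraries had 60.46 and 52.05 for Fam193b and 89.29 and 87.88 for Nr2c1. For Nr2c1 the control libraries of the lines thus stood apart without induction, and the pEx5 induced libraries lay near the mEx5 controls. That gap was not tested. The changes differed between the lines by 44.0 points for Fam193b and 34.9 points for Nr2c1 (limma adjusted p = 0.0346 and 0.017). The first lost its call without any 1 of the 4 pEx5 libraries (limma adjusted p of 0.0617 to 0.137), and Nr2c1 without induced B or knockdown B (up to 0.074).

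More events came back in mEx5 cells and not, or less, in pEx5 cells. Those named other than Pstk and Sept8 were chosen after their values were seen. The 39 nt exon of Elavl2 had a PSI of 22.9 and 22 in induced, 20.9 and 20.0 in knockdown and 37.1 and 40.1 in control libraries of the pEx5 line. In the mEx5 line the exon had 60.8 and 55.4 in induced and 26.1 and 22.9 in knockdown libraries (a difference of -31.6 points, limma adjusted p = 0.00133). Induced libraries thus stood at the knockdown level in the pEx5 line and, in the mEx5 line, above the controls (40.9 and 40.4). The 97 nt exon of Clk3 (chr9:57758627-57758723), another kinase of SR proteins, had a PSI of 61.1 and 59.5 in pEx5 induced and 58.6 and 61.3 in pEx5 knockdown libraries. In mEx5 cells it had 83.3 and 85.3 in induced and 63.8 and 59.3 in knockdown libraries (-22.3 points, limma adjusted p = 0.0154). The 126 nt exon of Ezh2, the histone methyltransferase of the Polycomb complex, had a PSI of 38.3 and 35.9 in pEx5 induced and 41.6 and 44.3 in pEx5 knockdown libraries. Its PSI was 54.3 and 54.2 in mEx5 induced and 40.8 and 41.4 in mEx5 knockdown libraries (-19.1 points, limma adjusted p = 0.0157). In all 3 genes the pEx5 induced libraries lay within a few points of the knockdown. A 9 nt alternative 5′ site of the splicing factor Hnrnph1 behaved likewise, with a PSI of 64.6 and 61.8 in pEx5 induced and 63.3 and 63.9 in pEx5 knockdown libraries. It had 80.4 and 78.6 in mEx5 induced and 65.4 and 61.5 in mEx5 knockdown libraries (-16.5 points, limma adjusted p = 0.00915). The 295 nt exon of Pstk (chr7:131373536-131373830), a kinase needed to make selenocysteine tRNA, had a PSI of 17.0 and 13.1 in pEx5 induced, 7.43 and 5.91 in pEx5 knockdown and 43.3 and 48.0 in pEx5 control libraries. Its values were 51.7 and 55.6 in mEx5 induced and 7.74 and 6.15 in mEx5 knockdown libraries (-38.3 points, limma adjusted p = 0.0263). The 265 nt site of the septin gene Sept8 had a PSI of 11.9 and 13.2 in pEx5 induced, 4.20 and 3.14 in pEx5 knockdown and 64.6 and 60.4 in pEx5 control libraries. It had 49.4 and 54.8 in mEx5 induced and 4.87 and 5.36 in mEx5 knockdown libraries (-38.1 points, limma adjusted p = 0.0113). Pstk lost its call without any 1 of the 4 pEx5 libraries (limma adjusted p of 0.0617 to 0.146), and Sept8 without induced A or knockdown A (up to 0.119).

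**Figure D5:**
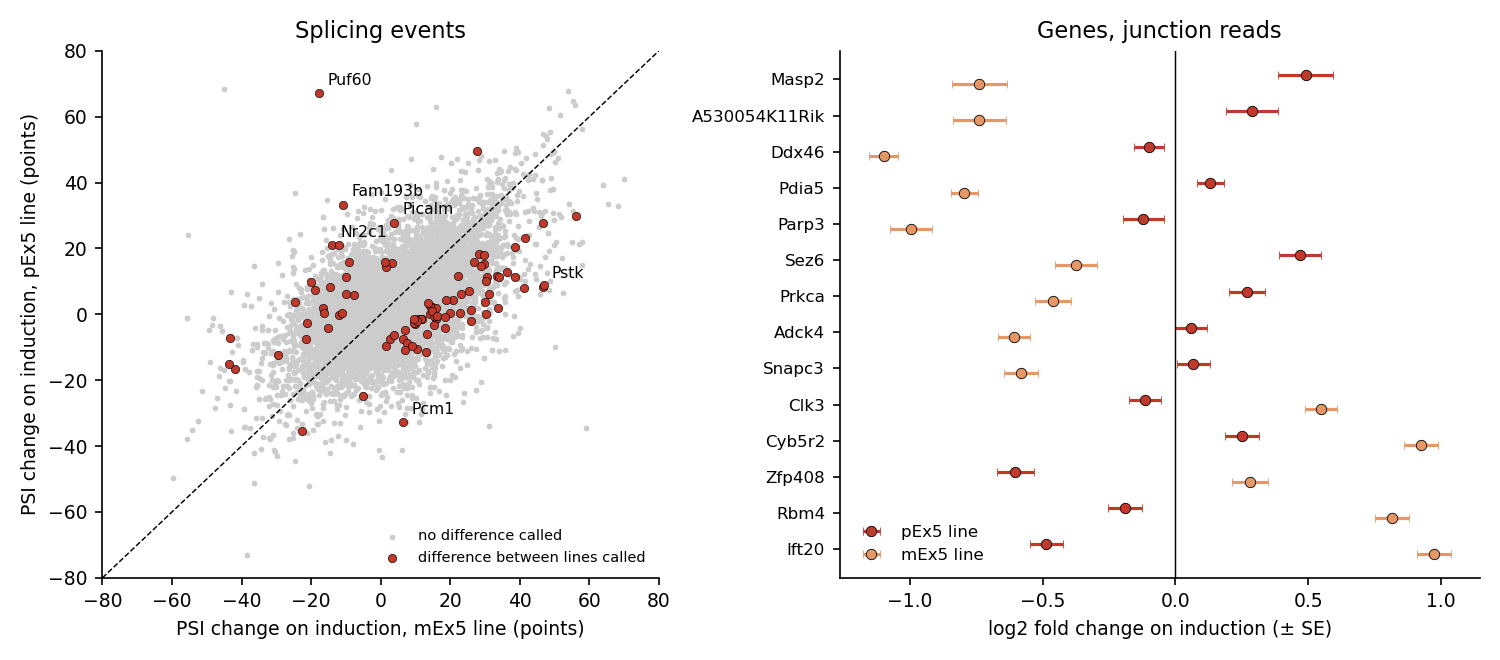
Left, PSI change on induction in points, pEx5 line (vertical) against mEx5 line (horizontal), for all 22767 events, with the 92 events past the test of the difference in red and a dashed line of equal change. Right, log2 fold change on induction with its SE in each line for 14 of the 15 genes past that test; Ddx46 lies near 0 in the pEx5 line and at -1.10 in the mEx5 line.

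Among the genes, the helicase Ddx46, a partner of the U2 snRNP that acts during branch point recognition, had a high level and a different course in the lines. Ddx46 had 575.4 and 534.9 CPM in pEx5 induced, 591.3 and 597.5 CPM in pEx5 knockdown and 324.6 and 330.5 CPM in pEx5 control libraries. The mEx5 line had 261.6 and 272.9 CPM in induced, 580.1 and 564.8 CPM in knockdown and 289.7 and 304.9 CPM in control libraries. In pEx5 cells it remained near the knockdown level (-0.10 ± 0.06, limma adjusted p = 0.261), and in mEx5 cells it fell to under the control level (-1.10 ± 0.06). The difference was 1.00 ± 0.08 on the log2 scale (limma adjusted p = 0.00239) and was called in every fit that left out 1 pEx5 library.

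Ift20, a gene of intraflagellar transport in cilia, had 20.8 and 20.3 CPM in pEx5 induced, 28.3 and 29.3 CPM in pEx5 knockdown and 50.01 and 50.30 CPM in pEx5 control libraries. In the mEx5 line it had 50.7 and 53.7 CPM in induced and 27.9 and 25.3 CPM in knockdown libraries. Induction thus moved it down in one line and up in the other, by -0.49 and 0.97, a difference of -1.46 (limma adjusted p = 0.00129). Rbm4, an RNA-binding splicing regulator with a close paralog that can share its reads, had 6.65 and 7.06 CPM in pEx5 induced and 7.76 and 7.88 CPM in pEx5 knockdown libraries. It had 13.5 and 14.1 CPM in mEx5 induced and 7.97 and 7.64 CPM in mEx5 knockdown libraries (a difference of -1.01, limma adjusted p = 0.00585, and 0.0603 without knockdown B). Clk3, named after its values were seen, also passed at gene level, by -0.11 in the pEx5 and 0.55 in the mEx5 line. Masp2, a protease of the complement system, changed by 0.49 in the pEx5 and -0.74 in the mEx5 line, and A530054K11Rik by 0.29 and -0.74. In the authors' deposited table the changes were 0.39 and -0.35 for Masp2 and 0.05 and -0.12 for A530054K11Rik, matched there by synonym. None of them passed (edgeR FDR of 0.0755 to 0.857). Leaving out either knockdown library ended the call of Masp2 and leaving out any of the 4 pEx5 libraries that of A530054K11Rik (limma adjusted p up to 0.177 and 0.214).

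Sp7, a transcription factor of bone-forming cells, was detected on junctions in the pEx5 line only. It had 5.54 and 4.95 CPM in induced, 1.09 and 1.39 CPM in knockdown and 6.51 and 6.18 CPM in control libraries, and rose by 2.04 ± 0.10 to near the control level (limma adjusted p = 3.05e-05). All 6 mEx5 libraries had 0 junction reads of Sp7, so no fold change exists there. They add no spread to the estimate that all groups share. The SE and adjusted p of Sp7 therefore understate the spread among the pEx5 libraries. In the authors' deposited table, which is not limited to junction reads, Sp7 stood at 5.25 RPKM in pEx5 induced, 4.42 in pEx5 knockdown and 5.82 in pEx5 control cells, a log2 fold change of 0.26 on induction that did not pass (edgeR FDR 0.0641).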

How the data were processed

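Polyadenylated RNA was sequenced from 12 libraries as stranded libraries with long inserts, per the labels' protocols. A vast-tools table of splicing, deposited by the authors, gives PSI in percent for 401633 events in each library, and per the file headers its quality text holds corrected inclusion and exclusion reads. PSI recomputed from these reads was within 0.02 points of the deposited value in 98.89% of cases. The deposited expression table gives each gene 1 RPKM value in every group, beside the authors' log2 fold changes and edgeR p-values and FDR; the submitters' processing notes name Salmon 0.14.1 and mm10. A further deposited table holds a group PSI score and the authors' True or False calls, with no criterion stated.

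Events that had 10 or more reads in every library and a mean PSI of 5 to 95 were tested with limma 3.58.1 (R 4.3.3) on log2 of inclusion over exclusion reads (pseudocount 0.5), with precision weights from the read counts (variance floor 0.01). All 6 groups of 2 shared 1 estimate of the spread. P-values were Benjamini-Hochberg adjusted over all 22767 events, and a call needed an adjusted p under 0.05 and 10 points. The 37194 reference sites of alternative 5′ and 3′ events were left out. Junction reads of the table were summed per gene (10363 genes with a mean of at least 20), scaled by the median of ratios, and tested with limma on log2 CPM (prior count 2). Of these genes, 9250 matched the expression table by symbol and 754 by synonym. Counting error is part of the weights of the event test, and the gene test had no weights. No molecular identifiers are stated, and both tests were checked on simulated data.

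The genes, lists and tests were chosen with earlier results of these data known. The text names, among called events that had 20 or more reads in all 4 compared libraries, the 8 exons and the 4 microexons, introns, 3′ sites and 5′ sites with the largest rise and fall. It also names up to 6 events and 6 genes that differ between the lines, the 10 genes with the largest rise and fall that the authors' table also calls, and the largest changes in each list. Some items that this rule names are not reported here. The letters A and B did not pair the libraries (correlation of deviations -0.016 between knockdown and induced). Alternatives changed the weights, read minimum, PSI limits, scaling, filter, prior count, samples in the fit and replicate block, and left out each library. The assembly of the splicing table's positions is not given in the sources used here, so positions are those of the GENCODE M21 (mm10) exons matched.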

Additional observations from a re-analysis of the deposited data

Results flagged for a closer look

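For 12 results the change on induction differed between the pEx5 and mEx5 lines in a limma test of the difference itself, pEx5 minus mEx5. Exon 5 of Puf60 differed by 84.9 PSI points, with a mean PSI of 88.7 in pEx5 induced against 21.5 in pEx5 knockdown libraries and of 6.70 in mEx5 induced against 24.4 in mEx5 knockdown libraries, as the cDNAs themselves do. The Fam193b exon differed by 44.0 points, the Pcm1 exon by -39.2, the Pstk exon by -38.3, the Sept8 site by -38.1 and the Nr2c1 exon by 34.9 points. Among genes the log2 differences were 2.04 for Sp7, -1.46 for Ift20, 1.23 for Masp2, 1.03 for A530054K11Rik, -1.01 for Rbm4 and 1.00 for Ddx46. The value for Sp7 rests on 0 junction reads in all 6 mEx5 libraries, and its test understates the spread. In the authors' deposited table neither Masp2 nor A530054K11Rik passed on induction in either line. Of these 12, Puf60 exon 5, Pcm1, Sp7, Ift20 and Ddx46 were called in every fit that left out 1 pEx5 library.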

How the results depend on the processing

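No alternative turned a direction. For pEx5 induction the 1681 events became 819 without weights, 1087 at a limit of 15 points and 662 with no limit on mean PSI (more events tested). The 1212 events that moved back became 607 and 754 under the first pair, and the 92 that differed between lines 1 and 58. With each library left out in turn, the counts ranged over 1087 to 1250, 866 to 990 and 42 to 56 events. The 1740 genes became 3594 in the authors' table, the 15 that differed between lines 28 when scaled by total reads and 6 with a replicate block, and leaving out a library gave 692 to 961 and 4 to 7 genes. The 1002 genes that moved back became 468 to 596, a set of alternatives chosen after seeing the data. With the replicate block, 1667 events and 1590 genes were called on induction, 1200 events and 929 genes moved back and 90 events differed. Of the named results, 47 of 79 kept their call in every fit without 1 library. Of 47 named events, 21 lost their call with no limit on mean PSI and 16 without weights, as did 5 of 6 named event differences without weights. The causes were not tested. Each group holds 2 libraries, and the induced ones are the shallowest of the pEx5 line, which limits rare events and genes near 1 CPM.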

Other observations

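Exons of Ddx46 that are mostly skipped lay under the PSI range tested and are given as values, chosen after they were seen. A 117 nt exon had a PSI of 0.93 and 0.63 in pEx5 induced, 0.31 and 0.50 in pEx5 knockdown and 4.09 and 4.17 in pEx5 control libraries. The same exon had 8.34 and 4.49 in mEx5 induced, 1.11 and 0.68 in mEx5 knockdown and 5.24 and 6.6 in mEx5 control libraries. A 48 nt exon had 0.38 and 0.45 in pEx5 induced, 0.38 and 0.25 in pEx5 knockdown and 2.43 and 2.58 in pEx5 control libraries. It had 2.89 and 4.30 in mEx5 induced, 0.67 and 0.59 in mEx5 knockdown and 2.22 and 2.31 in mEx5 control libraries. In both exons the pEx5 induced libraries lay with the knockdown libraries, and the mEx5 induced libraries lay above them, while the Ddx46 level had the opposite order between the lines.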
